A study of Homo sapiens with 12 samples.

Results

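Axon guidance genes encode the secreted and membrane-bound cues that steer growing axons, together with the receptors that read them. They were taken here as all autosomal genes whose symbol in the deposited peak annotation matched an Eph receptor, ephrin, semaphorin, plexin, netrin, UNC5, slit or ROBO pattern. A gene entered when any of the 4 peak lists held a peak centred within 10 kb of its transcription start site (TSS) in that annotation. This gave 52 of the 18981 genes that had such a peak on any chromosome. They are 12 Eph receptor, 5 ephrin, 12 semaphorin, 5 plexin, 6 netrin, 4 UNC5, 2 slit and 3 ROBO genes, plus EPHA1-AS1, UNC5B-AS1 and UNC5CL, whose symbols also match. The first 2 of these are non-coding antisense genes, and UNC5CL is a related adaptor that is not a netrin receptor.

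The measurement was ChIP-seq of H3K27me3, trimethylation of lysine 27 of histone H3, in T24, an established human urinary bladder cancer line. The 4 ChIP libraries were from T24 cells given GSK-126 at 5 µM, fenretinide at 5 µM, both at 5 µM each (the combination), or DMSO alone (the vehicle), in each case for 72 h. GSK-126 inhibits the catalytic activity of EZH2, and fenretinide is a synthetic retinoid. Each condition had 1 library, so no difference here has a replicate check, and the counting intervals below compare libraries, not conditions, and cover counting error only. The input and RNA-seq libraries were not analysed here, so neither the level of the genes' transcripts nor the identity of the line was checked.

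H3K27me3 is placed by EZH2 within Polycomb repressive complex 2 and marks genes that are kept silent, many of them developmental regulators. Ephrins bind Eph receptors at cell contacts, semaphorins act mainly through plexins and neuropilins, slits through ROBO receptors, and netrins through DCC and UNC5 receptors. Outside the nervous system the same molecules act in epithelial boundary formation, cell migration and vessel growth.

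The libraries held 15812933 to 18928836 fragments in 273664 consensus intervals. A level below is fragments per kb of interval per 1000000 interval fragments, and a ratio is a library's share of fragments in a gene's intervals over the share in another library, with its 95% counting interval in brackets. A gene was called higher when its ratio reached 2, and lower when it was 0.5 or less, provided that the counting interval excluded 1 and that both libraries together held at least 50 fragments. No label names a spike-in, so higher and lower refer to library share. When libraries were instead scaled to the 25% of intervals with the lowest density (background scaling), log2 ratios against vehicle shifted by -0.77 (GSK-126), -0.13 (fenretinide) and -0.81 (combination). In bulk chromatin, fewer cells or alleles with the mark and less mark on each cannot be told apart.

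Of the genes whose promoter window lies inside their intervals, EPHB6, EPHA8, SEMA5B and SLIT3 had the most fragments, so their windows are shown. Each runs from 250 bases before to 50 bases after a RefSeq start (build GRCh38.p14), 5′ to 3′ on the gene's strand, with CG dinucleotides in capitals. The EPHB6 window is chr7:142862506-142862805 (+ strand), that of EPHA8 chr1:22563239-22563538 (+), that of SEMA5B chr3:123028556-123028855 (- strand) and that of SLIT3 chr5:169301090-169301389 (-).
EPHB6: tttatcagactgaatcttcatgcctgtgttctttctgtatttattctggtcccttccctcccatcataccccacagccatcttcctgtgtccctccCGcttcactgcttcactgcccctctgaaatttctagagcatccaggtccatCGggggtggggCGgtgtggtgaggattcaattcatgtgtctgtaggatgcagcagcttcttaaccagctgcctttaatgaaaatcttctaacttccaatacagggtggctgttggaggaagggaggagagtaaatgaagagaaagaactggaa
EPHA8: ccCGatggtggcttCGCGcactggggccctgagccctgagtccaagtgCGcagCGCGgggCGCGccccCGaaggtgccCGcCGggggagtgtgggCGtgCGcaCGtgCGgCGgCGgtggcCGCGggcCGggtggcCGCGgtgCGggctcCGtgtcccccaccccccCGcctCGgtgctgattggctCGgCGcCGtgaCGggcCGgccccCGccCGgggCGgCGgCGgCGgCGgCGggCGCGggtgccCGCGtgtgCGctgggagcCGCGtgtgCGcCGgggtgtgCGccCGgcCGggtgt
SEMA5B: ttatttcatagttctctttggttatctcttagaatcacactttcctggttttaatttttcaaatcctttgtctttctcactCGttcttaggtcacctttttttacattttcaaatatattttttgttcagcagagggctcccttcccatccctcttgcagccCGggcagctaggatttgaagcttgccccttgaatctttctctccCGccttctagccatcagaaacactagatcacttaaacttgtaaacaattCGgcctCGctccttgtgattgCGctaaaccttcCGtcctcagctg
SLIT3: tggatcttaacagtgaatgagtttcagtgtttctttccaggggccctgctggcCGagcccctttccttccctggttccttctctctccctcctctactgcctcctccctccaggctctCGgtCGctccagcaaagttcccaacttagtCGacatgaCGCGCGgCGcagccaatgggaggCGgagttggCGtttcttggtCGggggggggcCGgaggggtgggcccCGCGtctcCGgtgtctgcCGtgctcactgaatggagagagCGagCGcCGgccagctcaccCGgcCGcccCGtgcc
The windows hold 3 CG in EPHB6, 51 in EPHA8, 7 in SEMA5B and 22 in SLIT3, against a median of 14 over 35116 promoters of the same length. CG dinucleotides read the same on both strands, and 96% of all promoters hold at least 1. The 4 most heavily covered genes thus included promoters both poor and rich in CG. Among the 34 genes with a promoter entry, the near-TSS log2 ratio of GSK-126 over vehicle had a Spearman rho of 0.02 with the number of CG, and the 7633 genes of all with an entry had -0.19, given as a description of genes that share the same libraries.

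The mark was unequal among the guidance genes, and most of those tested had a lower library share with GSK-126. Their median level was 0.387 with GSK-126, 0.721 with fenretinide, 0.45 with the combination and 0.816 with vehicle. The median over all 18981 genes was 0.493 with GSK-126, 0.684 with fenretinide, 0.539 with the combination and 0.777 with vehicle. The guidance genes thus lay above the median of all genes with vehicle and fenretinide, and below it in both libraries with GSK-126. Summed over their 121 different intervals, they took 593.3 of each 1000000 interval fragments with GSK-126, 1065 with fenretinide, 673 with the combination and 1300 with vehicle. The ratio of these sums was 0.456 (0.445 to 0.467) for GSK-126 against vehicle, 0.819 (0.804 to 0.835) for fenretinide and 0.518 (0.506 to 0.53) for the combination.

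**Figure D1:**
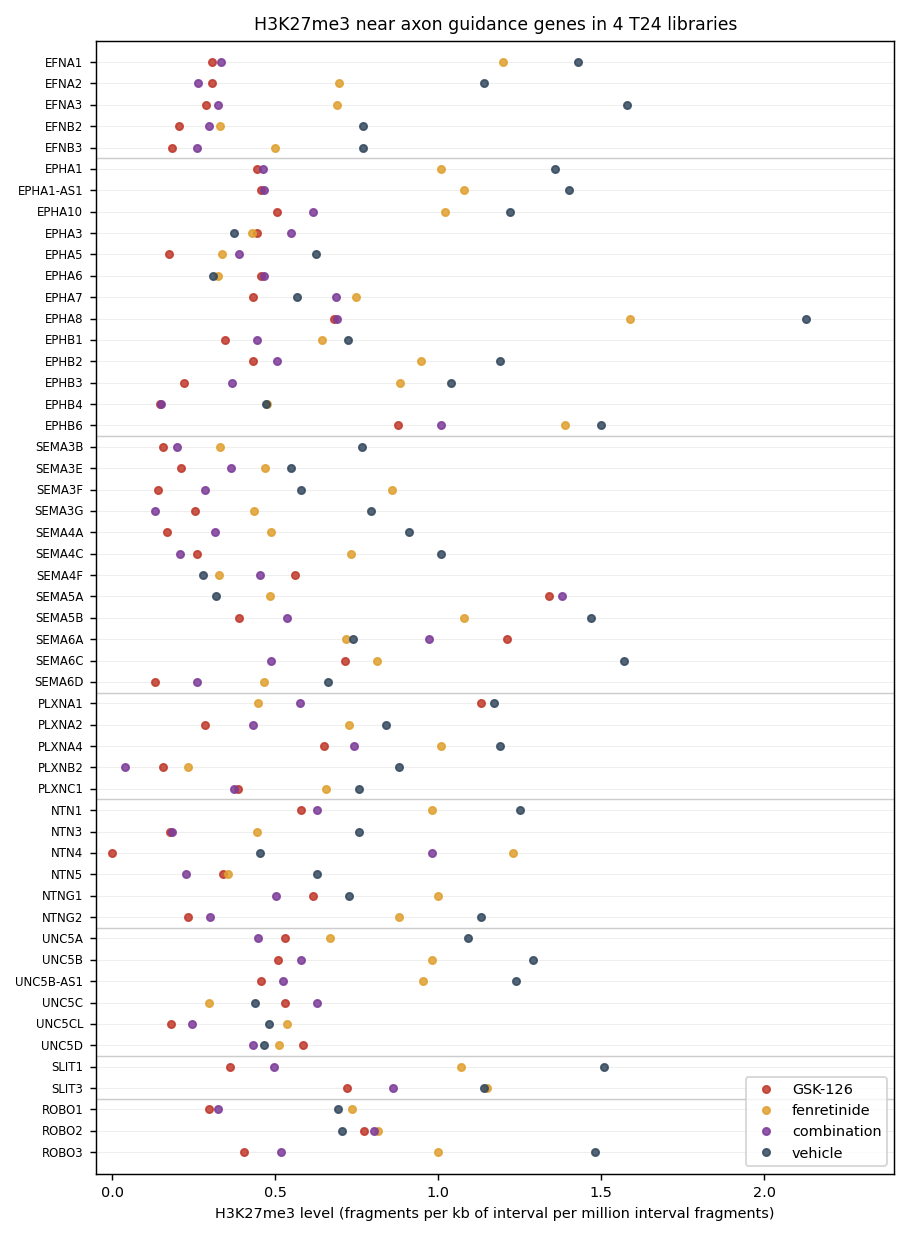
Level of H3K27me3 (fragments per kb of interval per 1000000 interval fragments) near each of the 52 genes, with 1 point per library and genes grouped by family. Vehicle points reach 2.13 at EPHA8, and GSK-126 and combination points lie left of the vehicle point for most genes, with SEMA5A as the clearest exception.

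Among 42 genes with enough fragments, GSK-126 against vehicle gave 28 lower, 1 higher and 13 neither, where 41.4% of all 14725 genes tested were called lower and 11.5% higher. The median log2 ratio was -1.44, against -0.79 over all genes. The 10 genes left out had too few fragments. EPHA1-AS1 and UNC5B-AS1 share intervals with EPHA1 and UNC5B, so the 28 count some fragments again. Without them and UNC5CL, 26 of 40 were lower and 1 higher, with a median of -1.39. Fenretinide against vehicle gave 2 lower and 0 higher of 45, beside 1.5% and 0.337% of all genes, with a median of -0.35 against -0.15. The combination against vehicle gave 25 lower and 1 higher of 43, beside 32.9% and 9.86% of all genes, with a median of -1.21 against -0.64. These comparisons share the vehicle library.

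**Figure D2:**
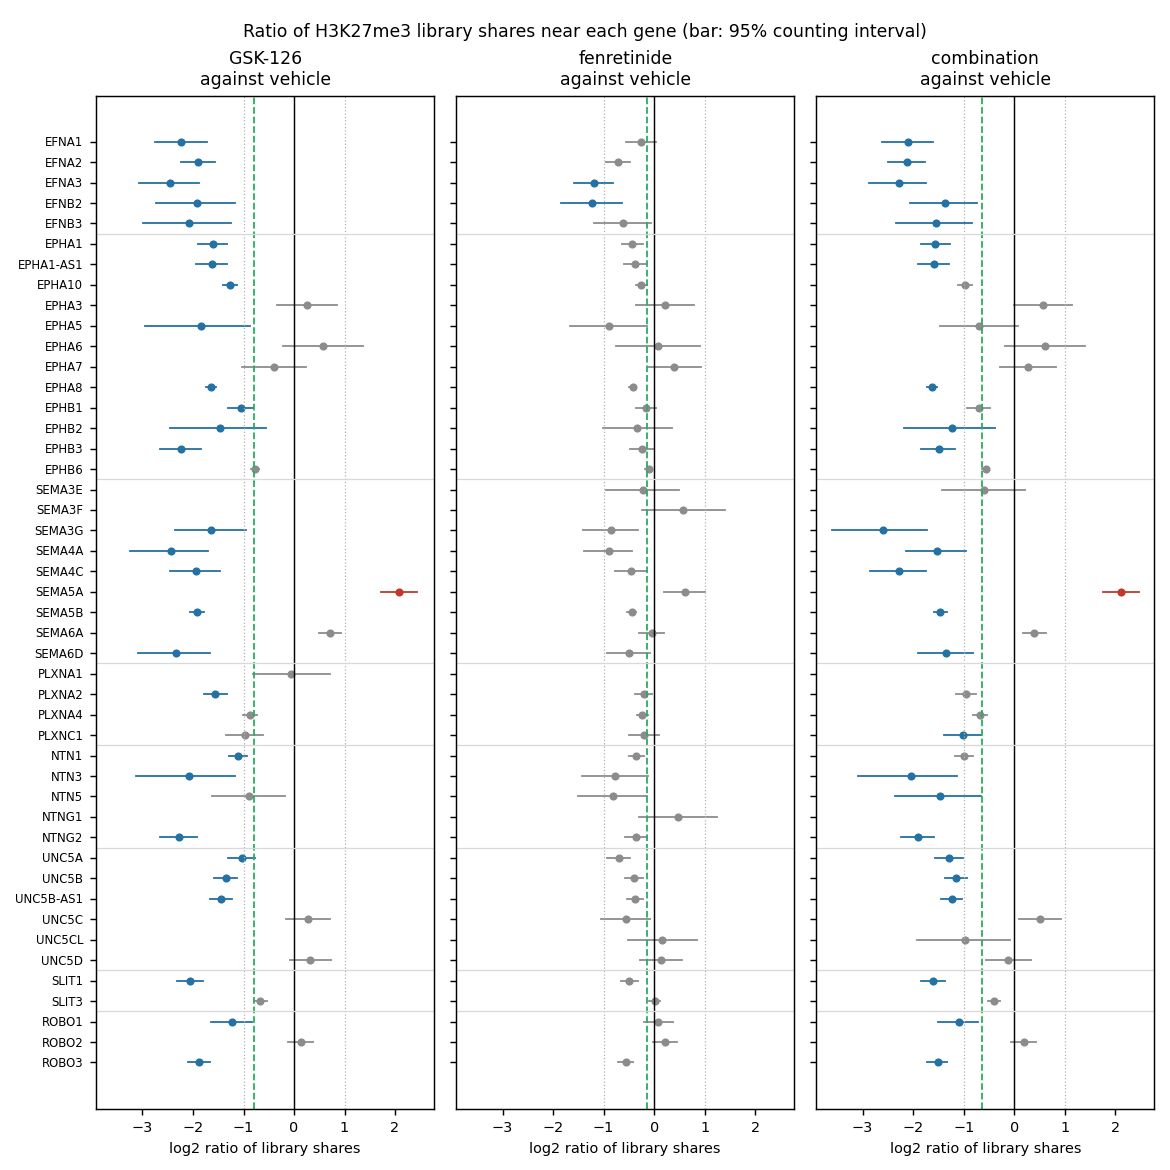
Log2 ratio of library shares against vehicle for each gene tested, with its 95% counting interval as a bar. Blue marks genes called lower, red genes called higher and grey the rest, the dotted lines mark a ratio of 0.5 and of 2, and the dashed green line is the median of all genes: -0.79 (GSK-126), -0.15 (fenretinide) and -0.64 (combination).

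The ephrins, ligands tethered to the membrane by a lipid anchor (EFNA) or a transmembrane segment (EFNB), were lower with GSK-126 in 5 of the 5 genes measured, with a median log2 ratio of -2.04. Of all genes tested, 41.4% were lower. This direction held under each scaling tried. That outcome was fixed, because each other scaling shifted all log2 ratios of GSK-126 against vehicle by a negative constant. EFNA1 had 40 fragments with GSK-126, 184 with fenretinide, 43 with the combination and 199 with vehicle. The ratio for GSK-126 was 0.213 (0.148 to 0.301), and that for fenretinide was 0.837 (0.681 to 1.03). EFNA2 had 94 fragments with GSK-126, 251 with fenretinide, 79 with the combination and 373 with vehicle. Its GSK-126 ratio was 0.267 (0.211 to 0.336).

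EFNA3 had 30 fragments with GSK-126, 84 with fenretinide, 33 with the combination and 174 with vehicle. EFNB2, the ligand known for its role in arterial vessels, had 19 fragments with GSK-126, 36 with fenretinide, 27 with the combination and 76 with vehicle. These were the 2 genes called lower with fenretinide, at 0.437 (0.333 to 0.57) for EFNA3 and 0.429 (0.28 to 0.645) for EFNB2. With GSK-126 they were at 0.183 (0.12 to 0.27) and 0.265 (0.151 to 0.443). Over its whole span EFNB2 was not called, at 0.616 (0.467 to 0.809) with GSK-126, 0.868 (0.685 to 1.1) with fenretinide and 0.652 (0.495 to 0.853) with the combination, and within 2 kb of the TSS it had too few fragments. EFNB3 had 15 fragments with GSK-126, 48 with fenretinide, 21 with the combination and 67 with vehicle. With GSK-126 its ratio was 0.237 (0.126 to 0.42). All 5 ephrins were also lower with the combination, beside 32.9% of all genes.

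Eph receptors, the receptor tyrosine kinases that bind ephrins, split by gene: 7 of 11 tested were lower with GSK-126, 0 were higher and 4 were neither (median log2 ratio -1.27). The shares over all genes were 41.4% lower and 11.5% higher. EPHA8 held the densest mark of all guidance genes with vehicle, at a level of 2.13. It had 1076 fragments with GSK-126, 2947 with fenretinide, 1070 with the combination and 3579 with vehicle, a ratio of 0.319 (0.298 to 0.341) for GSK-126 and 0.324 (0.302 to 0.347) for the combination. Its interval, chr1:22543344-22641373, spans 98 kb and also holds peaks assigned to C1QA, C1QC and MIR6127. EPHB6, a receptor without kinase activity, lies in an interval of 153 kb at chr7:142847320-143000500 that it shares with TRPV6, TRPV5, KEL and C7orf34.

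EPHB6 had 2174 fragments with GSK-126, 4017 with fenretinide, 2445 with the combination and 3927 with vehicle. At 0.587 (0.557 to 0.619) for GSK-126 it did not reach the call, and it was lower under background scaling. EPHA10, another receptor that lacks kinase activity, had 523 fragments with GSK-126, 1236 with fenretinide, 625 with the combination and 1335 with vehicle. GSK-126 against vehicle stood at 0.415 (0.375 to 0.46). The combination left it at 0.507 (0.461 to 0.558), just short of the call. EPHB3 had 62 fragments with GSK-126, 290 with fenretinide, 101 with the combination and 309 with vehicle, and its ratio for GSK-126 was the lowest of the Eph receptors tested, 0.213 (0.159 to 0.28).

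EPHA1 had 134 fragments with GSK-126, 356 with fenretinide, 136 with the combination and 435 with vehicle. Its GSK-126 ratio was 0.327 (0.267 to 0.397). EPHA1-AS1 counts mostly the same fragments, because it shares an interval with EPHA1. EPHB1 was lower at 0.481 (0.404 to 0.571), EPHB2 at 0.362 (0.182 to 0.678) and EPHA5 at 0.278 (0.129 to 0.549) with GSK-126. The 3 genes with ratios nearest to or above 1 were EPHA3 at 1.2 (0.792 to 1.81), EPHA6 at 1.48 (0.864 to 2.59) and EPHA7 at 0.76 (0.488 to 1.18). Under background scaling the Eph receptors gave 9 lower and 0 higher of 11, beside 68.7% and 7.23% of all genes.

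Semaphorins are secreted (SEMA3) or membrane-bound (SEMA4 to SEMA6) cues that often repel axons. With GSK-126, 5 of 7 tested were lower, 1 was higher and 1 was neither (median log2 ratio -1.92), and 5 others had too few fragments. All genes gave 41.4% lower and 11.5% higher. SEMA5B, the most heavily covered, had 513 fragments with GSK-126, 1670 with fenretinide, 689 with the combination and 2057 with vehicle. Its ratio was 0.264 (0.24 to 0.291) for GSK-126 and 0.363 (0.332 to 0.396) for the combination, over 1 interval at chr3:122954387-123035796. SEMA4A had 18 fragments with GSK-126, 61 with fenretinide, 33 with the combination and 103 with vehicle. With GSK-126 its ratio was 0.185 (0.106 to 0.308). SEMA4C had 45 fragments with GSK-126, 148 with fenretinide, 35 with the combination and 184 with vehicle. GSK-126 against vehicle stood at 0.259 (0.183 to 0.361).

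SEMA5A, the paralogue of SEMA5B, went the other way. It had 333 fragments with GSK-126, 141 with fenretinide, 334 with the combination and 84 with vehicle. The ratio was 4.2 (3.3 to 5.41) for GSK-126, 4.31 (3.38 to 5.54) for the combination and 1.52 (1.15 to 2.02) for fenretinide, and the first 2 were still called higher under background scaling. The start that the deposited annotation used for SEMA5A lies 282 kb from the nearest RefSeq start, inside the gene, so this value is not one of its RefSeq promoter. SEMA6A, a transmembrane semaphorin, had 418 fragments with GSK-126, 290 with fenretinide, 329 with the combination and 271 with vehicle over chr5:116560830-116582233, at 1.64 (1.4 to 1.91) for GSK-126 and 1.32 (1.12 to 1.55) for the combination, short of the call.

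Plexins, the semaphorin receptors, gave 1 lower of 4 tested with GSK-126 and 0 higher, with a median log2 ratio of -0.92. All genes gave 41.4% lower and 11.5% higher, with a median of -0.79. PLXNA2 had 209 fragments with GSK-126, 622 with fenretinide, 310 with the combination and 651 with vehicle, and was lower with GSK-126 at 0.34 (0.29 to 0.398). With the combination it was at 0.516 (0.449 to 0.592). PLXNA4 had 628 fragments with GSK-126, 1148 with fenretinide, 702 with the combination and 1219 with vehicle and stood at 0.546 (0.495 to 0.602) with GSK-126. PLXNC1 had 95 fragments with GSK-126, 190 with fenretinide, 90 with the combination and 198 with vehicle and was at 0.509 (0.394 to 0.653) with GSK-126 and lower with the combination at 0.492 (0.38 to 0.635). Under background scaling 3 of the 4 plexins were lower with GSK-126, near the 68.7% of all genes.

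Netrins are secreted laminin-related cues, and NTNG1 and NTNG2 are lipid-anchored relatives. With GSK-126, 3 of 4 tested were lower, beside 41.4% of all genes, with a median log2 ratio of -1.58. NTN1 had 346 fragments with GSK-126, 688 with fenretinide, 368 with the combination and 793 with vehicle, at 0.463 (0.407 to 0.526) with GSK-126 and 0.503 (0.443 to 0.57) with the combination. NTNG2 had 77 fragments with GSK-126, 343 with fenretinide, 98 with the combination and 397 with vehicle, at 0.206 (0.159 to 0.263) with GSK-126. NTN5 had 26 fragments with GSK-126, 32 with fenretinide, 17 with the combination and 51 with vehicle and was called lower with the combination, at 0.361 (0.196 to 0.636), while GSK-126 left it at 0.541 (0.324 to 0.883). Within 2 kb of the TSS, where NTN5 had 31 fragments in the GSK-126 and vehicle libraries together and was not tested, its ratio lay above 1, at 2.59 (1.15 to 6.4). NTN4 had 0 fragments with GSK-126, 6 with fenretinide, 4 with the combination and 2 with vehicle in 1 interval of 0.258 kb, too few for a ratio.

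UNC5 genes encode repulsive netrin receptors, and with GSK-126 2 of 4 were lower and 2 neither. The share lower was near the 41.4% of all genes. UNC5B had 222 fragments with GSK-126, 502 with fenretinide, 248 with the combination and 599 with vehicle. Its GSK-126 ratio was 0.393 (0.335 to 0.459). UNC5A had 177 fragments with GSK-126, 261 with fenretinide, 146 with the combination and 385 with vehicle. With GSK-126 its ratio was 0.488 (0.406 to 0.584). UNC5C, by contrast, had 99 fragments with GSK-126, 65 with fenretinide, 115 with the combination and 87 with vehicle, at 1.21 (0.896 to 1.63) with GSK-126, and UNC5D had 111 fragments with GSK-126, 114 with fenretinide, 80 with the combination and 94 with vehicle, at 1.25 (0.943 to 1.67). Under background scaling UNC5C and UNC5D fell below 1 and remained uncalled. The UNC5D intervals, within chr8:35544568-35559534, lie inside its RefSeq gene span, chr8:35235475-35796540. UNC5D has no RefSeq promoter entry, so its value is not shown to be one of a promoter.

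Slits are secreted repellents, and SLIT1 and SLIT3 differed in size of ratio. SLIT1 had 155 fragments with GSK-126, 537 with fenretinide, 208 with the combination and 685 with vehicle, and was lower with GSK-126 at 0.24 (0.2 to 0.286). SLIT3 had 834 fragments with GSK-126, 1561 with fenretinide, 976 with the combination and 1404 with vehicle and was at 0.63 (0.578 to 0.687) with GSK-126 and 0.753 (0.693 to 0.818) with the combination. Their counting intervals for GSK-126 do not overlap, and SLIT3 was lower under background scaling.

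The slit receptors showed a like spread. ROBO3 had 226 fragments with GSK-126, 656 with fenretinide, 283 with the combination and 878 with vehicle. GSK-126 against vehicle stood at 0.273 (0.235 to 0.316). ROBO1 had 72 fragments with GSK-126, 210 with fenretinide, 77 with the combination and 179 with vehicle. Its GSK-126 ratio was 0.427 (0.32 to 0.564). ROBO2 had 275 fragments with GSK-126, 341 with fenretinide, 280 with the combination and 266 with vehicle. With GSK-126 its ratio was 1.1 (0.923 to 1.3). The deposited start of ROBO2 lies 404 kb from the nearest start in the RefSeq promoter entries. The summed intervals nonetheless cover the boundary of its RefSeq gene span at chr3:75906675. Of 44 guidance genes with such an entry, 3 had a gap over 10 kb (ROBO2, SEMA5A and EPHA7), beside 7.74% of 11724 genes. UNC5D, which has no entry, is not among the 44.

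Few calls separated the combination from GSK-126 alone, and none fell on a guidance gene. Combination against GSK-126 gave 0 higher and 0 lower of 34 genes tested, beside 0.443% and 0.501% of all genes, with a median log2 ratio of 0.19 against 0.08. Of the 28 genes lower with GSK-126, 23 were also lower with the combination. The other 5, EPHA10, EPHA5, EPHB1, NTN1 and PLXNA2, had combination ratios of 0.507, 0.619, 0.615, 0.503 and 0.516. NTN5 and PLXNC1 were lower with the combination and not with GSK-126. The comparisons of GSK-126 and of the combination against vehicle share the vehicle library, and their overlap was not counted over all genes. The summed intervals gave 1.13 (1.1 to 1.17) for combination against GSK-126.

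Combination against fenretinide gave 14 lower and 2 higher of 41, beside 18.7% and 9.43% of all genes, with a median log2 ratio of -0.81 against -0.49. SEMA5A at 2.84 (2.32 to 3.48) and UNC5C at 2.12 (1.55 to 2.92) were the 2 called higher, and neither was called under background scaling. EFNA1 was at 0.28 (0.196 to 0.392) and SEMA4C at 0.283 (0.19 to 0.411). The ratio over the summed intervals was 0.632 (0.617 to 0.647).

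In the deposited peak lists, fewer guidance genes had a peak within 10 kb with GSK-126 or the combination than with fenretinide or vehicle. Within 2 kb this did not hold, as given under the processing alternatives. A peak within 10 kb was listed for 32 of the 52 genes with GSK-126, 45 with fenretinide, 35 with the combination and 46 with vehicle. These were 61.5% of the guidance genes with GSK-126, 86.5% with fenretinide, 67.3% with the combination and 88.5% with vehicle. Of all 18981 genes, 63.1% had such a peak on an autosome with GSK-126, 74.8% with fenretinide, 75.1% with the combination and 73.3% with vehicle. The 18981 include genes outside the autosomes, whose peaks were not counted, so these shares over all genes are too low. The peaks of the guidance genes covered 116 kb with GSK-126, 340 kb with fenretinide, 178 kb with the combination and 368 kb with vehicle. For 11 genes, a peak centred within 10 kb was listed with vehicle, but none with GSK-126 or the combination. These genes were EPHB2, EPHB4, NTN3, NTNG2, PLXNB2, SEMA3E, SEMA3F, SEMA4C, SEMA6C, UNC5B-AS1 and UNC5CL. They were 23.9% of the guidance genes with a vehicle peak, beside 16.3% of all genes with one. Peaks were matched by assigned gene and centre, and overlap with the vehicle peak was not tested. A peak that moved its centre or nearest TSS would therefore count as absent. UNC5B-AS1, for example, shares an interval with UNC5B, which had a peak listed in every library. EPHA10, ROBO3 and SEMA4F had a GSK-126 peak and no vehicle peak centred within 10 kb, which is 5.77% of the guidance genes, beside 13.5% of all genes. That 13.5% also counts autosomal peaks only, over all 18981 genes. EPHA10 and ROBO3 were nonetheless lower in fragments, and the vehicle peaks nearest to them were centred beyond that limit.

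The intervals that cover a RefSeq start answer the same question without the deposited start. They were 7447 in all, and 25 belonged to 23 guidance genes. Of 20 tested with GSK-126 against vehicle, 11 were lower and 3 higher, beside 37.4% and 10.3% of all such intervals, with a median log2 ratio of -1.16 against -0.7. SEMA6D is the clearest case of 2 starts that differ. The interval over its first, upstream start had 157 fragments with GSK-126, 74 with fenretinide, 141 with the combination and 73 with vehicle, a ratio of 2.28 (1.72 to 3.05). The interval over the second start had 19 fragments with GSK-126, 84 with fenretinide, 36 with the combination and 111 with vehicle, a ratio of 0.182 (0.105 to 0.297). Under background scaling the first start was at 1.34 and no longer called.

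These 2 windows, and that of EPHA6, were picked after their values were seen. They show starts of 1 gene, or of 1 family, that differ in response, on chr15:47183839-47184138 (+) and chr15:47717255-47717554 (+) for SEMA6D and chr3:96814344-96814643 (+) for EPHA6, with CG in capitals.
SEMA6D first start: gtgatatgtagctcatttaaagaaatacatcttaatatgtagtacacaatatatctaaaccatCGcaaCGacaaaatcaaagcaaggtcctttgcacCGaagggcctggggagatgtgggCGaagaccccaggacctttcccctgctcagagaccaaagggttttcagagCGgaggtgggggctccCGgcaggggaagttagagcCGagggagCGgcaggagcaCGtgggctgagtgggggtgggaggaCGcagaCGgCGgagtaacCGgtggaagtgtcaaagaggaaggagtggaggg
SEMA6D second start: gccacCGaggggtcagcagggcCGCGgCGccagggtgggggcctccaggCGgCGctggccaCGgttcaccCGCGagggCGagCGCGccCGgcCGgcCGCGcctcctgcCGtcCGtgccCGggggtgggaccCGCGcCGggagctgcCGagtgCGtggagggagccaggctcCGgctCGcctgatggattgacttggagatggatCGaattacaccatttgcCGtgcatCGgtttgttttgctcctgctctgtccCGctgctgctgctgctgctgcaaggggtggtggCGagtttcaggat
EPHA6: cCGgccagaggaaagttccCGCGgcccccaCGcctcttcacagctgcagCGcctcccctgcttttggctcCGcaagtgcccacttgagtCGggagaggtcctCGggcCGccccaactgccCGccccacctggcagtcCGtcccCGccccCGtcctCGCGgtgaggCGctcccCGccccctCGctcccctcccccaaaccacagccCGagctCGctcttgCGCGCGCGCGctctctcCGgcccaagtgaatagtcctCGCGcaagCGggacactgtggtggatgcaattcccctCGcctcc
The first SEMA6D window holds 13 CG and the second 31, and the EPHA6 window holds 30. EPHA6, whose sum above lies near a downstream start, had 170 fragments with GSK-126, 32 with fenretinide, 99 with the combination and 42 with vehicle in the interval over its first start. The ratio for GSK-126 was 4.29 (3.05 to 6.17). The peaks there are assigned to MIR8060 in the deposited annotation. EPHA7 had 174 fragments with GSK-126, 59 with fenretinide, 145 with the combination and 51 with vehicle in the interval over its starts, chr6:93415346-93422954, a ratio of 3.62 (2.63 to 5.05). Both were still called higher with GSK-126 under background scaling, at 2.52 and 2.13. With the combination they were at 2.55 (1.76 to 3.76) and 3.08 (2.22 to 4.33), and below 2 under background scaling.

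Other starts went with the majority. PLXNC1 had 86 fragments with GSK-126, 226 with fenretinide, 120 with the combination and 325 with vehicle over its first start, a ratio of 0.281 (0.219 to 0.357), although its sum near the deposited start was not called with GSK-126. ROBO2 had 89 fragments with GSK-126, 97 with fenretinide, 84 with the combination and 82 with vehicle over its first promoter entry start (chr3:76310880), at 1.15 (0.843 to 1.57). It had 48 fragments with GSK-126, 79 with fenretinide, 40 with the combination and 118 with vehicle over its second (chr3:77040099), at 0.431 (0.302 to 0.608). Both of these ROBO2 starts lie inside its gene span. Over starts, the combination against vehicle gave 11 lower and 3 higher of 21 tested, beside 29.1% and 8.6% of all. Fenretinide alone gave 0 lower and 0 higher of 22, beside 2.15% and 0.178% of all.

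**Figure D3:**
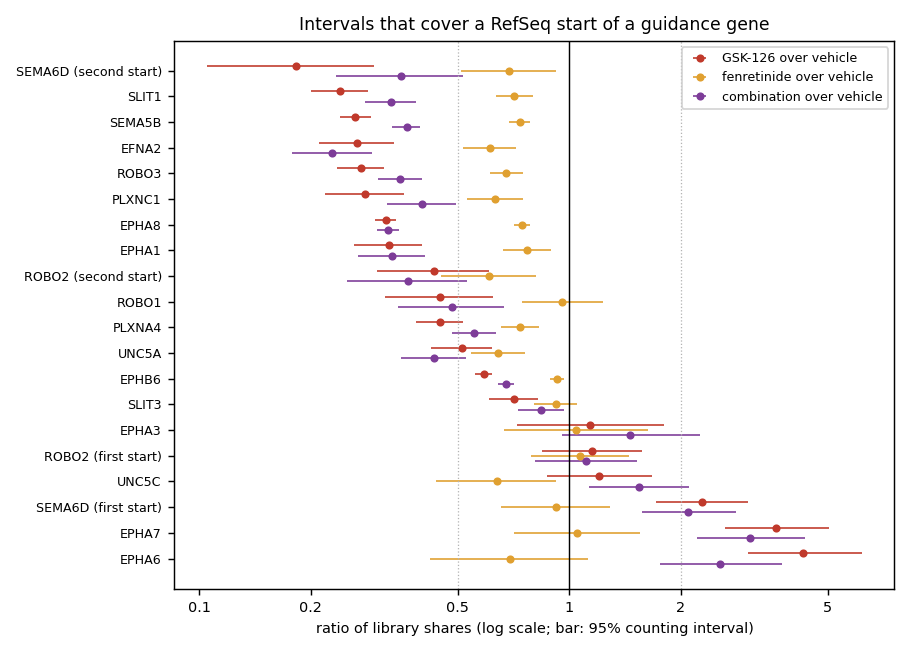
Ratio of library shares against vehicle, on a log axis, for the 20 intervals over a RefSeq start of a guidance gene that were tested with GSK-126, ordered by the GSK-126 ratio. Bars are 95% counting intervals. EPHA6, EPHA7 and the first start of SEMA6D lie above 2 with GSK-126 and with the combination, and the fenretinide points stay between 0.5 and 2.

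Whole gene spans, with 5 kb on either side, gave a picture that depended on gene length. RefSeq lists 66 autosomal coding genes whose symbols match these families, UNC5CL among them, and 60 had an interval in their span, 10 of them outside the 52. UNC5CL, of 12.3 kb, counts below among the spans lower with GSK-126, at 0.296 (0.142 to 0.571). Of 52 spans tested with GSK-126 against vehicle, 29 were lower and 6 higher, beside 38.2% and 17.1% of all coding genes. Below 50 kb in length, 18 of 20 were lower and 0 higher, with a median log2 ratio of -1.78 against -0.94 for all genes of that length, of which 47.9% were lower and 11.8% higher. From 50 to 200 kb, 8 of 14 were lower and 1 higher, with medians of -1.15 and -0.46, beside 28.7% lower and 23.1% higher of all. At 200 kb or more, 3 of 18 were lower and 5 higher (27.8%), with medians of 0.41 and 0.17. Of all genes of that length, 8.33% were lower and 31.4% higher, so the share higher was near that of all. Under background scaling these 18 gave 7 lower and 2 higher with a median of -0.36. All genes of that length then gave 34.5% lower and 19.3% higher, with a median of -0.59. Over the 52 spans the log2 ratio had a Spearman rho of 0.76 with length, and over all 11843 spans 0.28, as a description of genes within the same libraries.

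Against vehicle, the combination gave 25 lower and 6 higher of 52 spans, beside 30.9% and 15.2% of all coding genes. Fenretinide gave 1 lower and 1 higher of 52, beside 1.62% and 0.727%. The combination gave 0 lower and 0 higher of 47 against GSK-126, beside 0.591% and 0.309%. Against fenretinide it gave 16 lower and 4 higher of 48, beside 16.5% and 15%.

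The 6 spans called higher with GSK-126 were SEMA3A, NTN4, EPHA3, SEMA5A, NTNG1 and ROBO2. SEMA3A, the classic secreted repellent, had 1085 fragments with GSK-126, 203 with fenretinide, 898 with the combination and 83 with vehicle in 11 intervals. Its ratio was 13.9 (11.1 to 17.5) for GSK-126, 11.7 (9.35 to 14.9) for the combination and 2.21 (1.71 to 2.89) for fenretinide. NTN4 had 173 fragments with GSK-126, 58 with fenretinide, 204 with the combination and 38 with vehicle. GSK-126 against vehicle stood at 4.83 (3.38 to 7.05). EPHA3 had 2168 fragments with GSK-126, 988 with fenretinide, 2081 with the combination and 671 with vehicle. Its GSK-126 ratio was 3.43 (3.14 to 3.74). Under background scaling SEMA3A, NTN4 and EPHA3 were still called higher with GSK-126 and the other 3 were not.

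**Figure D4:**
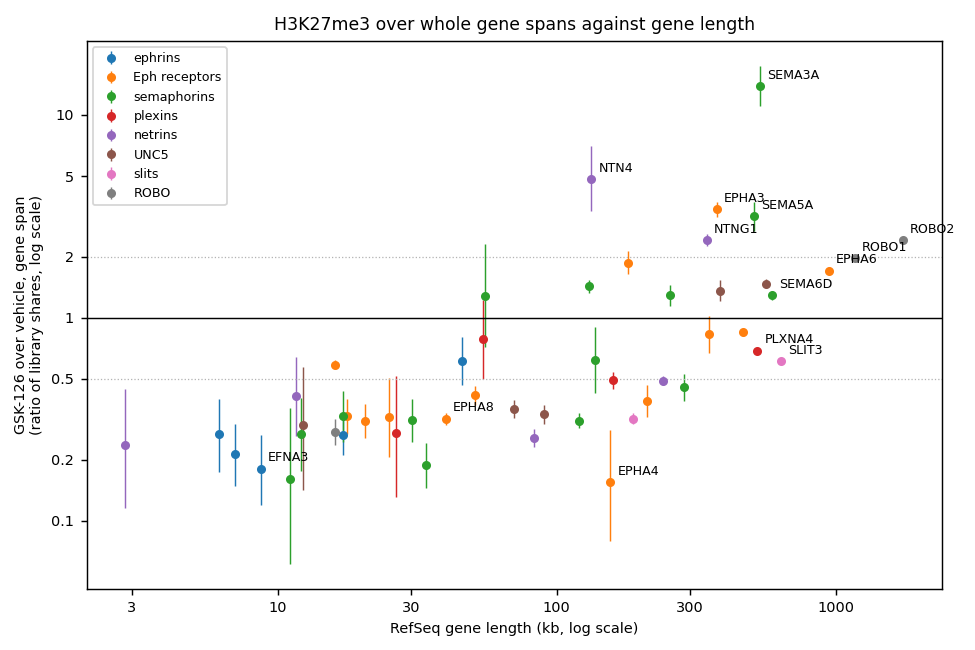
Ratio of library shares over gene spans, GSK-126 over vehicle (log scale), against RefSeq gene length (log scale), for the 52 spans tested, UNC5CL among them, with 95% counting intervals. These are not the same set as the 52 genes near the TSS. Genes below 50 kb all lie under 1, and the 6 above 2, among them SEMA3A at 13.9, are all longer than 50 kb.

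Among 16 guidance genes of at least 200 kb with a RefSeq promoter entry, 10 had an interval over a start. The GSK-126 ratio was higher in the rest of the span than over the start in 8 of them, and lower in 2, EPHA6 and SLIT3. The starts of EPHA5 and NTNG1 had too few fragments for a call. In UNC5C, SEMA6D and SLIT3 the counting intervals of start and rest overlapped. For ROBO1, ROBO2 and PLXNA4 the start lies inside the gene span. The same count was not made over all long genes, so it is no trait of guidance genes. EPHA6 was at 4.29 over its start and at 1.69 (1.62 to 1.75) in the rest. ROBO1 had 5.86 fragments per kb with GSK-126 and 13.9 with vehicle in the interval over its promoter entry start. The ratio of library shares there was 0.446 (0.317 to 0.62). In the rest of its span it had 11.7 per kb with GSK-126 and 6.1 with vehicle, a ratio of 2.03 (1.94 to 2.12). The ROBO1 start used, chr3:79019459, lies inside the gene span, whose 5′ end is chr3:79767998. Intervals centred 1.3 kb and -7.4 kb from that 5′ end counted with the rest, at log2 ratios of 0.4 and 0.97. The ROBO1 contrast is therefore with an internal start. NTNG1 had 6 fragments with GSK-126 and 41 with vehicle over its starts, and a ratio of 2.49 (2.32 to 2.66) in the rest. EPHA3 had 11.1 fragments per kb with GSK-126 and 3.3 with vehicle outside its start, a ratio of 3.57 (3.27 to 3.91).

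SLIT3 and PLXNA4 were long genes with a dense mark along the whole span, and there the rest of the span was below 1 as well. SLIT3 had 11.6 fragments per kb with GSK-126 and 20.2 with vehicle outside its start, a ratio of 0.608 (0.591 to 0.626). PLXNA4 had 11.3 per kb with GSK-126 and 17 with vehicle, a ratio of 0.706 (0.683 to 0.73). Over all 16 genes the density outside the start ran between 3.39 and 15.3 per kb with GSK-126 and between 3.3 and 22.8 with vehicle. The genes given in detail here were chosen after their values were seen.

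**Figure D5:**
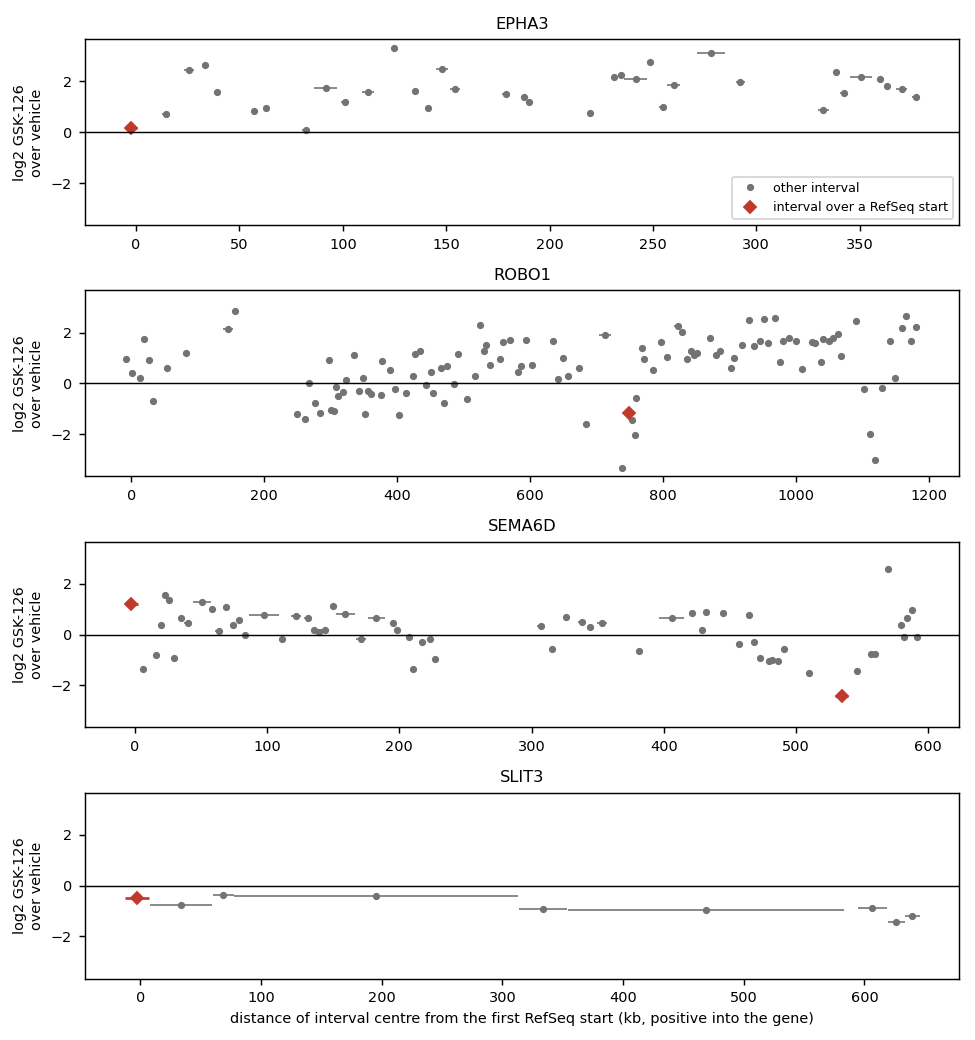
Log2 ratio of library shares, GSK-126 over vehicle, for intervals with at least 20 fragments in both libraries together along 4 long genes. The horizontal axis is the distance in kb from the 5′ end of the RefSeq gene span. Red diamonds are intervals over a start with a RefSeq promoter entry, and horizontal lines give interval width. In ROBO1 the red diamond lies at 747.8 kb, inside the gene. All 36 EPHA3 intervals and 84 of 117 in ROBO1 lie above 0, against 38 of 65 in SEMA6D and 0 of 9 in SLIT3.

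Other genes of the guidance pathway were read from a list of 56 co-receptors, adhesion molecules and signalling genes, which holds UNC5CL as well. A peak lay within 10 kb for 41. Of 35 tested with GSK-126 against vehicle, 18 were lower and 4 higher, with a median log2 ratio of -1.0. These are 51.4% and 11.4%, beside 41.4% and 11.5% of all genes with a median of -0.79, so the share called higher was near that of all genes. NRP2, a neuropilin that pairs with plexins, was at 0.265 (0.206 to 0.339), and DRAXIN, a secreted repellent, at 0.193 (0.131 to 0.278). The 4 higher were DCC, the attractive netrin receptor, at 2.05 (1.63 to 2.6), DSCAM at 3.81 (3.53 to 4.11), CHL1 at 2.67 (2.23 to 3.2) and SLITRK4 at 3.01 (2.2 to 4.17). With the combination 14 of 36 were lower (38.9%) and 3 higher (8.33%), near the 32.9% and 9.86% of all genes. With fenretinide 2 of 36 were lower (5.56%, beside 1.5%), FES at 0.46 and FLRT1 at 0.49.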

How the data were processed

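The authors deposited raw fragment counts for 273664 consensus intervals, made with featureCounts 2.0.1 per the file headers, with a minimum overlap fraction of 0.2. The authors also deposited a peak list per library, with a peak score whose scale is not stated and the distance from each peak to the nearest TSS. Peaks were called with MACS2 2.1.0 against the hg38 (GRCh38) build, as the submitters' processing notes list them. HOMER supplied the annotation, per the file headers. No aligner is named in the sources used here. Chromatin was fixed with 1% formaldehyde for 10 min, per the labels' protocols.

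Intervals overlapping a gene's peaks within 10 kb of its TSS were summed per library, and an interval shared by genes counted for each. Ratios of library shares have exact Clopper-Pearson 95% intervals, and log2 ratios used a pseudocount of 0.5. With 1 library per condition no test was run. Spans and starts came from RefSeq (GRCh38.p14), and an interval counted for a start when it overlapped the promoter window. Starts were those with a promoter entry, and for some genes, ROBO1, ROBO2 and PLXNA4 among them, these lie inside the gene span. The library totals, in fragments, were 16156194 (GSK-126), 18928836 (fenretinide), 15812933 (combination) and 17133107 (vehicle).

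The genes, the pathway list and the comparisons were chosen with earlier results of these data known. Full values were given for the 3 genes of each family with the most fragments and for up to 8 called lower and 8 called higher against vehicle with at least 100 fragments, ranked by the counting bound nearest to 1. Other genes were named with fewer values. Alternatives used TMM factors from edgeR 4.0.16, size factors from DESeq2 1.42.0, background scaling, other distances, peak limits, gene spans and starts. The calling rule was tested on simulated data. The software was R 4.3.3 and Python 3.11.15, with scipy 1.17.1 for intervals, pandas 2.3.3 and numpy 2.4.6 for sums, and matplotlib 3.10.9 for figures.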

Additional observations from a re-analysis of the deposited data

Results flagged for a closer look

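EFNB1, an ephrin ligand gene on chromosome X, lies outside the autosomal rule and carried a signal in data that the comparisons do not use. It had 63 fragments with GSK-126, 137 with fenretinide, 71 with the combination and 145 with vehicle in 3 intervals. The ratio of library shares was 0.461 (0.337 to 0.623) for GSK-126 against vehicle, 0.855 (0.672 to 1.09) for fenretinide and 0.531 (0.394 to 0.709) for the combination.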

How the results depend on the processing

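Of the counts and medians of the comparisons, 150 stayed close to those reported and 53 moved. Without a distance limit the fenretinide calls against vehicle went from lower only to higher only. Within 2 kb, no fewer genes had a peak with GSK-126 or the combination than with vehicle. Where no cause is named, the cause was not tested. Leaving out a replicate could not be done, since each condition had 1 library. No paired analysis was possible because each condition had 1 library, so the number 1 that all carry pairs nothing. For single genes, 535 values stayed close, 20 kept their direction and lost the call, 99 moved and 6 reversed. Few fragments limit what can be called for the genes with under 50 in the 2 libraries.

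Background scaling gave median log2 ratios of -2.20 (GSK-126), -0.48 (fenretinide) and -2.03 (combination) against vehicle, beside -1.55, -0.29 and -1.46 over all genes. The combination against fenretinide had a median of -1.49, with 32 genes lower and 0 higher. Over all genes its median was -1.17, with 59.6% lower and 4.71% higher. Fenretinide against vehicle had 4 genes lower under background scaling, DESeq2 size factors and TMM factors, beside 2.64%, 2.52% and 2.47% of all genes. It had a median of -0.47 under both DESeq2 and TMM. Without a fragment minimum it had 5 lower, and the combination had 1 higher against GSK-126. No share over all genes is given for that setting.

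Within 2 kb of the TSS, fewer genes were tested: GSK-126 and the combination each had 14 lower and 0 higher against vehicle, fenretinide had 1 lower, and the combination had 6 lower and 1 higher against fenretinide. Peaks were then listed for 18 genes with GSK-126, 12 with fenretinide, 19 with the combination and 18 with vehicle. Without a distance limit, 10 genes were higher with GSK-126 (median -0.85), 10 with the combination (-0.71), 1 with fenretinide and 0 lower (-0.15), and 7 with the combination against fenretinide (-0.44). With the upper part of peak scores, 17 genes had a GSK-126 peak, and 1 gene was higher with the combination against fenretinide. Numbers tested and shares over all genes are not given for the settings in this paragraph. These counts are therefore no trait of guidance genes.

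Over gene spans of these genes, 5 were higher with GSK-126 and 5 with the combination (median -0.91), and 1 was lower with fenretinide. Over all coding gene spans, 17.1% were higher with GSK-126, 15.2% were higher with the combination and 1.62% were lower with fenretinide. Gene spans with background scaling, added after seeing the data, gave 2 higher with GSK-126 (-1.96), -1.73 for the combination, 0.04 for combination against GSK-126, and 28 lower with 1 higher against fenretinide (-1.27). Of all coding gene spans, 12% were then higher with GSK-126 (-1.45). For the combination against fenretinide, 54.8% were lower and 9.27% higher (-1.09). Intervals over a RefSeq start, also added later, gave 2 higher and 9 lower with GSK-126 and with the combination against vehicle, 0 lower with fenretinide, and 5 lower with the combination against fenretinide (-0.52). Among all intervals over a start, 10.3% were higher and 37.4% lower with GSK-126. The combination gave 8.6% higher and 29.1% lower, and fenretinide 2.15% lower. No such share is given for the combination against fenretinide.

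Single called genes that reversed were ROBO1 over its span (log2 0.98 with GSK-126 and 0.86 with the combination against vehicle, 0.56 with the combination against fenretinide), SEMA6D over its span (0.37 with GSK-126, 0.39 with the combination) and NTN5 within 2 kb (0.12 with the combination). The NTN5 value with the combination rests on 18 fragments and was not tested, at a ratio of 1.08 (0.381 to 3.08). NTN5 was not called with GSK-126 against vehicle and changed sign within 2 kb, at log2 1.33 on 31 fragments. With GSK-126, NTN1 (ratio 0.539) and UNC5A (0.512) lost the call within 2 kb, and EFNB2 lost it over its span.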
